A study of Mus musculus with 19 samples.

Results

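The 39 Hox genes of the mouse were described in the abdominal aorta by RNA-sequencing. They were taken from the joined count table by name alone, as every gene called Hoxa, Hoxb, Hoxc or Hoxd followed by a number, and they were 39 of its 39395 genes. In GENCODE M21 on GRCm38 the Hoxa cluster held 11 of them at chr6:52155590-52260880, the Hoxb cluster 10 at chr11:96194316-96368256, the Hoxc cluster 9 at chr15:102921103-103036852 and the Hoxd cluster 9 at chr2:74668310-74765142. The identifiers of the deposited counts carried other version numbers than M21 for all 39 genes, so these positions come from the reference and not from the annotation with which the reads were counted.

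Hox genes encode homeodomain transcription factors that give cells along the body axis their regional identity. Their order on the chromosome matches their order of use in the embryo, from paralog group 1 at the head end to paralog group 13 at the tail end, and genes with the same number in different clusters are copies of one another. Adult arteries keep much of this pattern, and the smooth muscle, fat and connective tissue of neighbouring body levels can differ in the Hox genes they express. Groups 1 to 4 are called anterior here, 5 to 8 central and 9 to 13 posterior.

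All 19 libraries came from abdominal aortas of male Apoe-/- mice on a C57Bl/6J background, which lack apolipoprotein E, and all mice were infused with angiotensin II (AngII) by a pump implanted at 8 to 10 weeks of age. The 5 control mice were not irradiated and received the same ketamine/xylazine anaesthesia. The 7 D-3 IR mice received 1 Gy of total-body X-rays 3 days before AngII and the 7 D+1 IR mice the same dose 1 day after it. No library came from an aorta without AngII, and the sources used here do not say on which day the sequenced aortas were taken or which stretch of the abdominal aorta each library holds. The study describes 1 group of mice killed at day 7 for analyses of tissue, without naming sequencing there. Each library is taken as 1 mouse, as the study's methods describe, and tissue around the vessel was part of the samples to differing degrees, as the marker genes given with the results show.

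Each library held between 25839001 and 97083681 reads counted in genes. The files of D+1 IR 1, 2 and 3 carried another series number than the other 16. No control or D-3 IR library carried it, so it is partly mixed with both comparisons that involve D+1 IR. The defining genes of smooth muscle were expressed in every library, with summed levels of 1391 to 29525 CPM (counts scaled to library size and normalized by the trimmed mean of M values). Brown adipocyte genes summed to more than these in D+1 IR 1 (5866 against 3060 CPM), D+1 IR 2 (7428 against 6892 CPM) and D+1 IR 3 (5304 against 1391 CPM). Genes of sympathetic neurons and adrenal medulla reached 3672 CPM in control 8. Other tissue was also present: 1 library, D-3 IR 10, had 6188 CPM of skeletal muscle genes against at most 2654 CPM in any other, and D+1 IR 3 had 66.7 CPM of adrenal cortex genes against at most 0.721. Kidney genes stayed at or below 1.87 CPM. Reads fell on the second strand in 49.9% to 50.1% of cases although the study names a stranded kit, so a Hox gene and an antisense RNA over it cannot be told apart.

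To show the regulatory DNA of genes described in the comparison of the irradiated groups, the 250 bases before the start of Hoxa5 and Hoxb8, with a lower fitted level in D-3 IR, and of Hoxa10 and Hoxd8, with a higher one, are given 5′ to 3′ from RefSeq on GRCm38.p6. Capitals mark matches on either strand to TTTATNG, a site of the Cdx factors that act upstream of Hox genes, or TATAAA, the TATA box, whose matches can overlap. None of these 4 genes passed the adjusted test in that comparison.
Hoxa5, chr6:52204588-52204837, minus strand: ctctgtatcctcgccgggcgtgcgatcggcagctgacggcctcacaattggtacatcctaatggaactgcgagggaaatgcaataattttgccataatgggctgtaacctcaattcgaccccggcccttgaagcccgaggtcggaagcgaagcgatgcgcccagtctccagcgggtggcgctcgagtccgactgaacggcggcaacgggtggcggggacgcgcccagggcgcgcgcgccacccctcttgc
Hoxb8, chr11:96281655-96281904, plus strand: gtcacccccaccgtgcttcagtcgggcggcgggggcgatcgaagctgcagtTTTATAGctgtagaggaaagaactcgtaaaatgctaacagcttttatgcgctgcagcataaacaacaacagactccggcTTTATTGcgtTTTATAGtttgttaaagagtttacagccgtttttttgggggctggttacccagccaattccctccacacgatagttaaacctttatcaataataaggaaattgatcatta
Hoxa10 outer start, chr6:52240855-52241104, minus strand: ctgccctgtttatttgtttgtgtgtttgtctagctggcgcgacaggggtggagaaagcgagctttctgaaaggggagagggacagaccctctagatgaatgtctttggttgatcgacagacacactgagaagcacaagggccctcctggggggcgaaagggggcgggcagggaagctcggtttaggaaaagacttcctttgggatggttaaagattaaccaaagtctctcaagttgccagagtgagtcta
Hoxa10 inner start, chr6:52234940-52235189, minus strand: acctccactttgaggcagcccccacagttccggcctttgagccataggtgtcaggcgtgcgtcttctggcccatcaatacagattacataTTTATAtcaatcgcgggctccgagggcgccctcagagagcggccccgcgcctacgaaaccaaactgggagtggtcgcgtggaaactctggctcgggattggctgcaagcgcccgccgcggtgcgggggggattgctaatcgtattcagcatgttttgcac
Hoxd8, chr2:74704365-74704614, plus strand: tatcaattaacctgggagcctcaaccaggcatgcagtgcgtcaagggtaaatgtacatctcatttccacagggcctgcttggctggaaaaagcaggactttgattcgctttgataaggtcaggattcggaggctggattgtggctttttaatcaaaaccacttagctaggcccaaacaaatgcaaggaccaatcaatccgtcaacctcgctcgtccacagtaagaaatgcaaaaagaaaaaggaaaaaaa

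RefSeq gives Hoxa10 an outer start, which is also the end of the gene in M21, and an inner start within a Hoxa10 intron. The Hoxa5 stretch lies in introns of longer transcripts of Hoxa3 and of the antisense RNA Hoxaas3, and the Hoxd8 stretch in an intron of the antisense RNA Hoxd3os1. Over windows of 300 bases that reach 50 bases past the start, TTTATNG was found for Hoxb8 and Hoxd4 and in 10.9% of all 32851 windows. TATAAA was found for Hoxa10, Hoxb8, Hoxd4 and Hoxd13, in 4 of the 24 Hox windows of 22 genes and in 13.6% of all windows. TGATTNAT, a joint site of Hox and Pbx proteins, was found for Hoxa2 and Hoxd11 and in 3.22% of all windows. The median window of a Hox gene held 14.5 CpG dinucleotides against 7 over all windows.

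As a mean over the 19 libraries, central Hox genes were expressed most strongly, and the highest group numbers were low or undetected. Central genes held 46.5% to 74.5% of the summed level per library and posterior genes at most 39.2%. The order of single genes differed between aortas. In control 6, with the most smooth muscle RNA, Hoxa10 (15.6 CPM per kb), Hoxc10 (14.8) and Hoxd8 (12.6) stood above Hoxa5 (8.61) and Hoxc8 (6.23). Neighbours in a cluster could differ widely. Hoxa6 had 1.05 CPM per kb between Hoxa5 and Hoxa7, and Hoxb5 had 1.27 CPM per kb between Hoxb4 and Hoxb6. Per kb of exon, the scale used wherever genes are compared, Hoxa5 was highest at 13.3 ± 6.51 CPM per kb (SD, n = 19), followed by Hoxc8 at 11.1 ± 3.97 CPM per kb and Hoxa7 at 9.90 ± 2.84 CPM per kb. Hoxa5 is known for its part in the lung and the neck and upper chest, and Hoxc8 and Hoxa7 pattern the chest. These 3 neighbours in the order differed by less than their spread, and per kb of the longest annotated transcript Hoxc8 (14.1) and Hoxa7 (14.0) stood above Hoxa5 (13.3), with the same 10 genes highest.

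The next 7 were Hoxc6 (8.01 CPM per kb), Hoxc10 (7.80 CPM per kb), Hoxd8 (6.20 CPM per kb), Hoxb4 (6.12 CPM per kb), Hoxb7 (5.96 CPM per kb), Hoxc9 (5.08 CPM per kb) and Hoxa10 (4.98 CPM per kb). Thus 6 of the 10 highest genes were central, 3 were posterior (Hoxc9, Hoxc10 and Hoxa10) and 1 was anterior. Hoxb4 is best known in blood stem cells. Hoxc9 marks the level of the chest and Hoxc10 that of the loin and hind limb, and the group 10 genes suppress ribs in the lumbar spine.

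**Figure D1:**
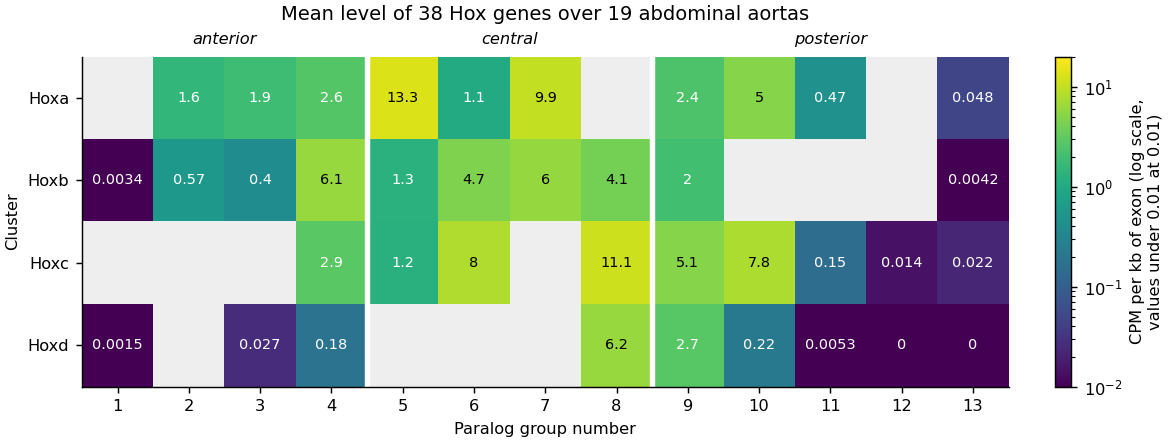
Mean level of 38 Hox genes over 19 libraries in CPM per kb of exon on a log colour scale, with clusters as lines and paralog groups along the horizontal axis; grey cells have no value shown. Levels peak between groups 4 and 10, from Hoxa5 at 13.3 to Hoxd12 and Hoxd13 at 0.

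The code ended at group 11 in the Hoxa and Hoxc clusters, at group 10 in Hoxd and at group 9 in Hoxb, as judged by the most posterior gene that passed the filter on low counts. These were Hoxa11 (0.470 CPM per kb), Hoxb9 (2.00 CPM per kb), Hoxc11 (0.150 CPM per kb) and Hoxd10 (0.215 CPM per kb). The end depends on the filter and on the aorta. Hoxc11 had at least 3 counts in 12 libraries and Hoxa13, which did not pass, in 11. Hoxa11 and Hoxc11 had no count in D+1 IR 1 and 2. Hoxa11 is needed for the uterus and the lower limb segments. Between Hoxc10 and Hoxc11 the mean level dropped from 7.80 to 0.150 CPM per kb, between Hoxa10 and Hoxa11 from 4.98 to 0.470 CPM per kb and between Hoxd9 and Hoxd10 from 2.74 to 0.215 CPM per kb.

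A total of 29 genes passed the filter, 10 of 11 in Hoxa, 8 of 10 in Hoxb, 7 of 9 in Hoxc and 4 of 9 in Hoxd. The 10 that did not were Hoxa13, Hoxb1, Hoxb13, Hoxc12, Hoxc13, Hoxd1, Hoxd3, Hoxd11, Hoxd12 and Hoxd13. Hoxd12 and Hoxd13, which act in the digits and the genital region, had no count in any library. A count of 0 allows a level of up to 0.0325 to 0.115 CPM, depending on the depth of the library and covering counting error only. Hoxd1 had 2 counts in all, while Hoxa13, a gene of the hindgut and digits, had 103 counts and reached 0.403 CPM in D-3 IR 10.

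At least 3 counts were found for 36 of the 39 genes in some library and for 25 in every library. Antisense transcription limits a few of these levels: counting 1 strand alone and doubling it gave 8.49 times the counts for Hoxb2 and 6.30 times for Hoxb3, which lose reads as ambiguous, and between 0.800 and 1.59 times for the other genes with counts. The low levels of Hoxb2 and Hoxb3 per kb are therefore lower bounds.

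Irradiation before AngII was first compared with no irradiation. No Hox gene passed edgeR's quasi-likelihood test (adjusted p = 1.00 after rounding for all 29, Benjamini-Hochberg), and 0 of the 29 had an unadjusted p under 0.05, against 1.32% of all 17617 genes tested. No gene of the whole table passed the adjusted threshold, and DESeq2 and limma voom called 0 Hox genes as well. The median log2 fold change of the Hox genes was -0.03, as over all genes, with 13 of 29 positive against 43.1% of all genes.

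The 5 Hox genes with the smallest p in this comparison were Hoxc6, Hoxd10, Hoxc4, Hoxb8 and Hoxb3. Hoxc6, a gene of the chest level, stood at 22.5, 17.7, 16.3, 25.8 and 15.7 CPM in control 4, 5, 6, 8 and 9. In D-3 IR it ranged from 15.3 through a median of 16.8 to 18.1 CPM. D-3 IR 14, the lowest, lay below every control and the other 6 lay inside the control range. The log2 fold change was -0.23 ± 0.15 (SE).

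Hoxd10 was close to the detection limit, at 0.106 to 0.426 CPM in control and 0 to 1.41 CPM in D-3 IR. Its log2 fold change of 1.23 ± 0.82 rested on few counts, with the highest value in D-3 IR 10. Hoxc4 had a log2 fold change of -0.56 ± 0.41, Hoxb8 of -0.34 ± 0.29 and Hoxb3 of 0.41 ± 0.36. All 3 groups overlapped for each of these genes.

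Irradiation after AngII was compared with the same 5 controls, so the values of both comparisons with control are not independent of each other. Again no Hox gene passed the adjusted test (smallest adjusted p = 0.644, edgeR), nor did any other gene, and limma voom and DESeq2 again called 0 Hox genes, with 0.0114% of all genes called by DESeq2. The median log2 fold change of the Hox genes was -0.06, with 13 of 29 positive against 44.9% of all genes. Without adjustment, 7 of 29 Hox genes had a p under 0.05, against 7.11% of all genes. Of these, 6 had a negative log2 fold change (Hoxa9, Hoxa10, Hoxa11, Hoxb2, Hoxc10 and Hoxc11, against 4.84% of all genes) and 1 a positive one (Hoxc5, against 2.27%). Thus 5 of the 6 were posterior. Hoxc11, 1 of these 5, passed the filter on low counts only through control and D-3 IR libraries. Without control 6, 2 of 29 had a p under 0.05, Hoxa10 and Hoxc5, against 2.13% of all genes, and without D+1 IR 20 it was 4 of 29, against 9.87%.

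Hoxa10 had the smallest p of this comparison. It stood at 16.6, 10.00, 50.8, 12.0 and 15.7 CPM in control 4, 5, 6, 8 and 9, so control 6 held over 3 times the level of any other control. In D+1 IR it ranged from 2.86 through a median of 8.53 to 16.4 CPM. Of the 7 D+1 IR aortas 5 lay below the lowest control, and the log2 fold change was -1.42 ± 0.43 (adjusted p = 0.644, edgeR). Without control 6 it was -0.79.

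Hoxc10 stood at 20.2, 9.97, 28.2, 12.1 and 16.3 CPM in the controls and between 1.43 and 16.3 CPM in D+1 IR, with a median of 10.6 CPM. The groups overlapped, and 3 D+1 IR aortas lay under 4 CPM, namely D+1 IR 1, 2 and 20. The fitted level was 2.01-fold lower in D+1 IR, with a standard error of 0.43 on the log2 scale. Hoxc11 was at 0 in D+1 IR 1 and 2 and had at most 8 counts in any D+1 IR library, while control 6 had 100 counts. Its log2 fold change of -3.01 ± 1.01 therefore compares levels near the detection limit. Without control 6 it was -1.44, and that of Hoxa11 went from -2.17 to -0.76.

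Hoxc5, which can share a transcript with its neighbours Hoxc4 and Hoxc6, was the 1 gene in the other direction. It stood at 3.72, 3.95, 1.67, 4.90 and 2.15 CPM in the controls and ranged from 3.33 through a median of 5.04 to 6.73 CPM in D+1 IR. The ranges overlapped, and the log2 fold change was 0.70 ± 0.26. Hoxb2 had a log2 fold change of -0.72 ± 0.28, with the limit on its counts given above.

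The timing of irradiation was then compared directly between D-3 IR and D+1 IR, where positive values mean higher in D-3 IR and the D+1 IR libraries are those of the comparison before. The fitted levels of posterior Hox genes lay above and those of most central genes below those of D+1 IR, but no gene, Hox or other, passed the adjusted test (smallest adjusted p of a Hox gene = 0.409, edgeR). Without adjustment 14 of 29 Hox genes had a p under 0.05, against 11.5% of all genes. Of these 8 were positive (among them Hoxa9, Hoxa10, Hoxa11, Hoxb2, Hoxc10, Hoxc11 and Hoxd8, against 6.71%) and 6 negative (Hoxa4, Hoxa5, Hoxb8, Hoxc5, Hoxc6 and Hoxc8, against 4.75%).

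The sign went with the paralog group. All 9 posterior genes tested had a positive log2 fold change, with a median of 0.68, against 45.4% positive and a median of -0.04 over all genes. Hoxc11 is among them: at most 0.104 CPM in any D+1 IR library, it passed the filter only through control and D-3 IR libraries. Its direction therefore adds no support. Of the 11 central genes 9 were negative, with a median of -0.27, and Hoxd8 was the 1 central gene that was positive with a p under 0.05. The 9 anterior genes were mixed, with 6 positive and a median of 0.36. These genes lie side by side in 4 clusters and are not independent of each other. Other tools called some of them: DESeq2 called Hoxc5 alone, against 0.318% of all genes, and limma voom called 9 of 29, against 13.0%, namely Hoxa5, Hoxa9, Hoxa10, Hoxa11, Hoxb8, Hoxc5, Hoxc10, Hoxc11 and Hoxd8.

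**Figure D2:**
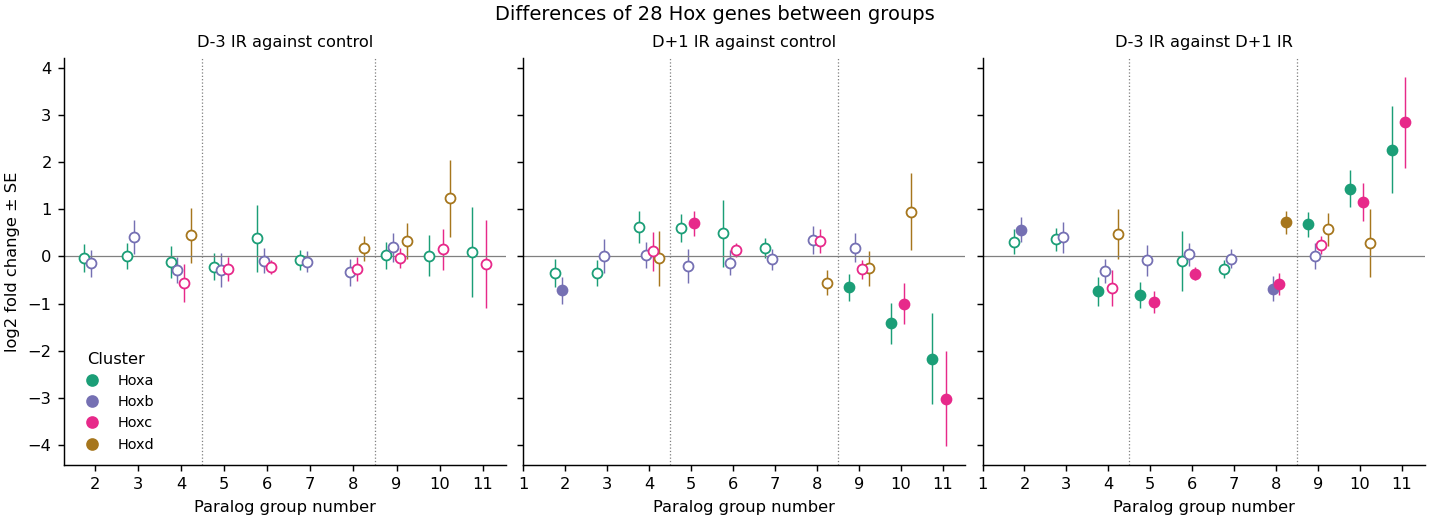
Log2 fold change with its standard error for 28 of the 29 Hox genes tested in each comparison, by paralog group and coloured by cluster; filled points have an unadjusted p under 0.05 and none passed the adjusted threshold. D-3 IR against control lies around 0, while 7 of 9 posterior genes lie below 0 in D+1 IR against control (Hoxb9 and Hoxd10 above) and all 9 above 0 in D-3 IR against D+1 IR, a pair of comparisons that share the D+1 IR libraries. Hoxc11 passed the filter only through control and D-3 IR libraries.

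Among the posterior genes, Hoxa10 ranged from 15.8 through a median of 20.1 to 29.6 CPM in D-3 IR, and only D+1 IR 19, at 16.4 CPM, reached into that range. Its log2 fold change was 1.44 ± 0.40 (adjusted p = 0.409, edgeR). Hoxc10 ranged from 12.6 through 20.4 to 23.3 CPM in D-3 IR, with a log2 fold change of 1.16 ± 0.40. The D+1 IR values of Hoxc10 split into 3 aortas under 4 CPM and 4 aortas between 10.6 and 16.3 CPM, of which D+1 IR 3 and 19 lay inside the D-3 IR range.

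Hoxa11 was between 0.825 and 3.30 CPM in D-3 IR, with a median of 1.45 CPM, and between 0 and 0.903 CPM in D+1 IR, with a median of 0.173 CPM. The ranges touched only through D-3 IR 10, D-3 IR 14 and D+1 IR 19. Its log2 fold change was 2.26 ± 0.92, and that of Hoxc11 was 2.85 ± 0.97 on counts of 0 to 38 in D-3 IR. Hoxa9, known for its role in blood progenitors and leukaemia, had a log2 fold change of 0.68 ± 0.26.

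The posterior gene of the other clusters was less different. Hoxb9 had a log2 fold change of 0.01, the smallest of the posterior genes. Hoxd9 and Hoxd10 had positive values with an unadjusted p above 0.05, and for Hoxd9 the log2 fold change was 0.58 ± 0.34. Hoxc9, the neighbour of Hoxc10, had a log2 fold change of 0.25, with 9.47 to 17.4 CPM in D-3 IR against 8.22 to 17.6 CPM in D+1 IR.

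Among the central genes, Hoxc5 had the smallest p of all Hox genes in this comparison. It ranged from 2.13 through a median of 2.64 to 3.48 CPM in D-3 IR and from 3.33 through 5.04 to 6.73 CPM in D+1 IR. Only D-3 IR 15 and D+1 IR 18 overlapped, and the log2 fold change was -0.96 ± 0.24 (adjusted p = 0.409, edgeR).

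Hoxa5 ranged from 15.8 through a median of 18.9 to 22.4 CPM in D-3 IR. In D+1 IR it ranged from 12.1 through 27.8 to 60.6 CPM, so that 6 of 7 D+1 IR aortas lay above every D-3 IR aorta and D+1 IR 17 lay below them all. The log2 fold change was -0.82 ± 0.27. In control 4, 5, 6, 8 and 9 Hoxa5 stood at 26.0, 34.4, 16.2, 16.0 and 16.7 CPM, and so overlapped with both irradiated groups.

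Hoxc8 ranged from 19.1 through 24.7 to 36.0 CPM in D-3 IR and from 22.7 through 37.8 to 53.8 CPM in D+1 IR, with a log2 fold change of -0.59 ± 0.23. Hoxc6 had a log2 fold change of -0.37 ± 0.14 and Hoxb8, which holds back the maturation of myeloid progenitors, of -0.68 ± 0.27. The anterior gene Hoxa4, next to Hoxa5 on the chromosome, had a log2 fold change of -0.74 ± 0.31.

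Hoxd8 and Hoxb6 were the central genes with a positive log2 fold change, and that of Hoxb6 was 0.04. Hoxd8 ranged from 11.9 through 20.3 to 28.3 CPM in D-3 IR and from 8.87 through 12.2 to 18.4 CPM in D+1 IR, with a log2 fold change of 0.73 ± 0.25. The ranges of Hoxa7, Hoxb7 and Hoxb4 overlapped widely. Hoxa7 lay between 22.3 and 33.4 CPM in D-3 IR and between 19.9 and 55.3 CPM in D+1 IR, and Hoxb7 between 5.99 and 12.8 CPM and between 6.11 and 13.5 CPM. Hoxb4 lay between 9.26 and 17.9 CPM in D-3 IR and between 8.50 and 26.2 CPM in D+1 IR.

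**Figure D3:**
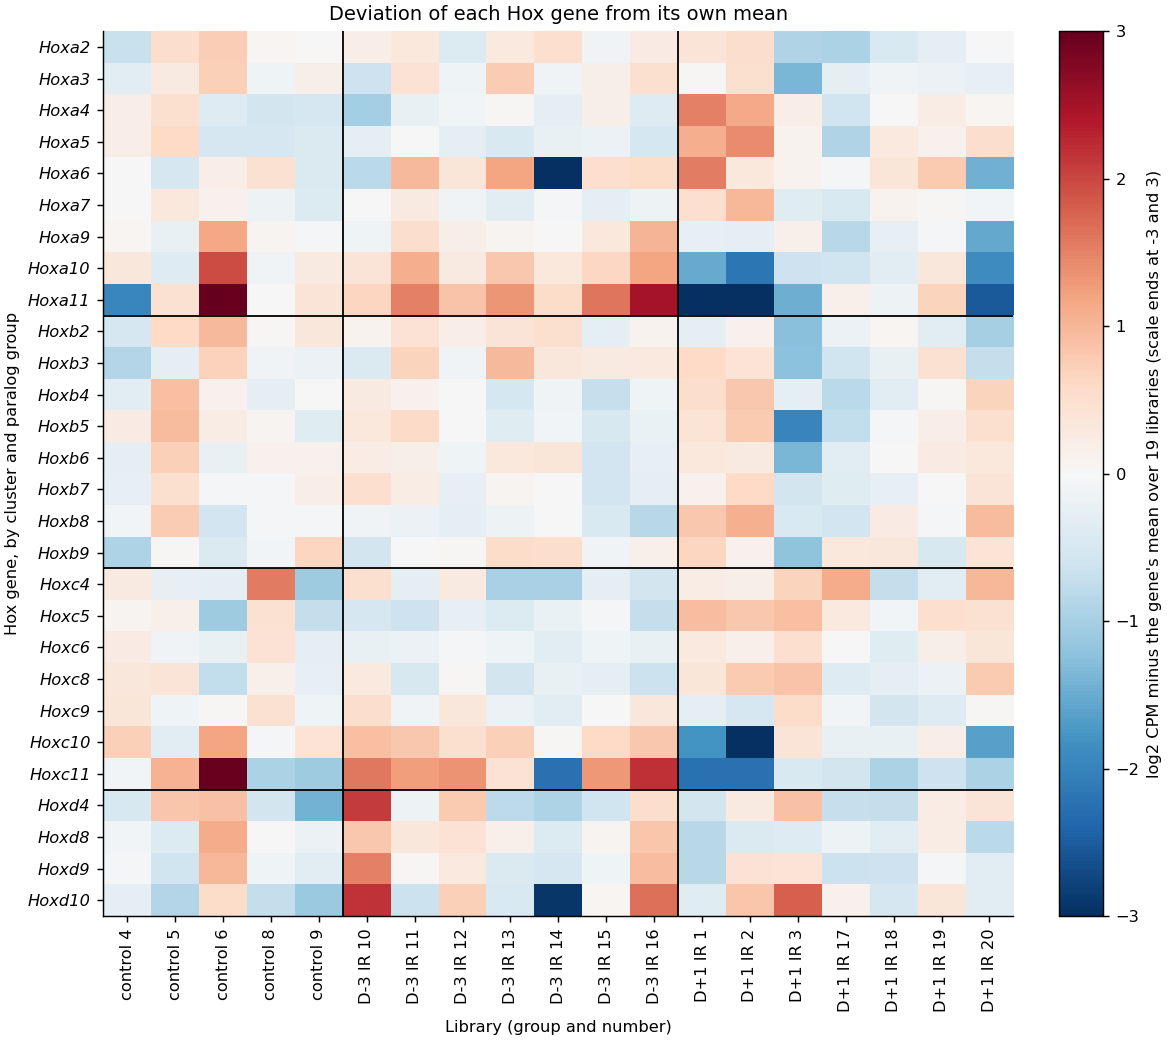
Log2 CPM of 28 of the 29 Hox genes tested minus its own mean over 19 libraries, with genes ordered by cluster and paralog group and libraries by group; the colour scale ends at -3 and 3. Control 6 and D-3 IR 16 stand out with high Hoxa9, Hoxa10, Hoxa11 and Hoxc11, while D+1 IR 1, 2 and 20 are low in Hoxa10, Hoxa11, Hoxc10 and Hoxc11 and high in Hoxb8.

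The position code of each aorta was summed up as the share of its Hox level, in CPM per kb, that fell to each class. The posterior share was 25.7%, 15.4%, 39.2%, 22.3% and 27.0% in control 4, 5, 6, 8 and 9. It ranged from 24.07% through a median of 29.6% to 36.9% in D-3 IR and from 8.57% through 19.9% to 23.98% in D+1 IR. The irradiated groups thus did not overlap by a narrow margin, between D-3 IR 14 and D+1 IR 3. The share is summed from the levels already compared gene by gene, Hoxa10 and Hoxc10 among them, so it adds no separate support. All 7 D-3 IR aortas lay inside the control range, while D+1 IR 1, 2 and 20, at 10.6%, 8.57% and 11.7%, lay below every control.

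The D-3 IR mice had a mean posterior share of 29.5% ± 3.88 (SD, n = 7), and the D+1 IR mice one of 17.1% ± 6.56 (SD, n = 7). The controls averaged 25.9% ± 8.69 (SD, n = 5). The central share was 58.4% ± 7.33 for the controls, then 55.9% ± 3.24 with irradiation before AngII and 67.0% ± 5.20 after it, and the anterior share was 15.7%, 14.5% and 15.9% in the same order. The summed level of all 39 genes overlapped between the groups, at 112 ± 13.9 CPM per kb for the controls, 106 ± 10.4 with irradiation before AngII and 111 ± 22.3 after it. Within the common file series, the 4 other D+1 IR aortas had a posterior share of 19.1% ± 5.14.

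The balance of a posterior and a more anterior gene in the same library does not depend on the depth of that library. The ratio of Hoxa10 to Hoxa5 counts was 0.638, 0.291, 3.15, 0.755 and 0.937 in control 4, 5, 6, 8 and 9. It lay between 0.837 and 1.88 in D-3 IR, with a median of 0.994, and between 0.0472 and 0.717 in D+1 IR, with a median of 0.345. The irradiated groups did not overlap. Both genes were among the 5 Hox genes with the smallest p between these groups, with opposite signs, so this ratio adds no separate support. The D-3 IR values lay inside the control range, and D+1 IR 1, 2 and 20, at 0.0933, 0.0472 and 0.106, lay below every control. The ratio of Hoxc10 to Hoxc8 overlapped slightly, at 0.501 to 1.14 in D-3 IR and 0.0281 to 0.538 in D+1 IR.

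In the other clusters the irradiated groups overlapped, and no difference between clusters was tested. The pairs were not alike, since the Hoxa pair lay farther apart in paralog group number than the others. The ratio of Hoxd9 to Hoxd8 counts had medians of 0.300, 0.299 and 0.332 in control, D-3 IR and D+1 IR, and that of Hoxb9 to Hoxb8 of 0.484, 0.621 and 0.355. For Hoxb9 to Hoxb8 the D-3 IR mean was 0.661 ± 0.195 and the D+1 IR mean 0.441 ± 0.222 (SD over 7 mice each), in the same direction as for Hoxa10 to Hoxa5. The share of each cluster in the summed level per kb overlapped between the groups, with means of 34.1% to 36.1% for Hoxa, 21.9% to 23.4% for Hoxb, 32.7% to 34.2% for Hoxc and 6.71% to 10.5% for Hoxd.

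**Figure D4:**
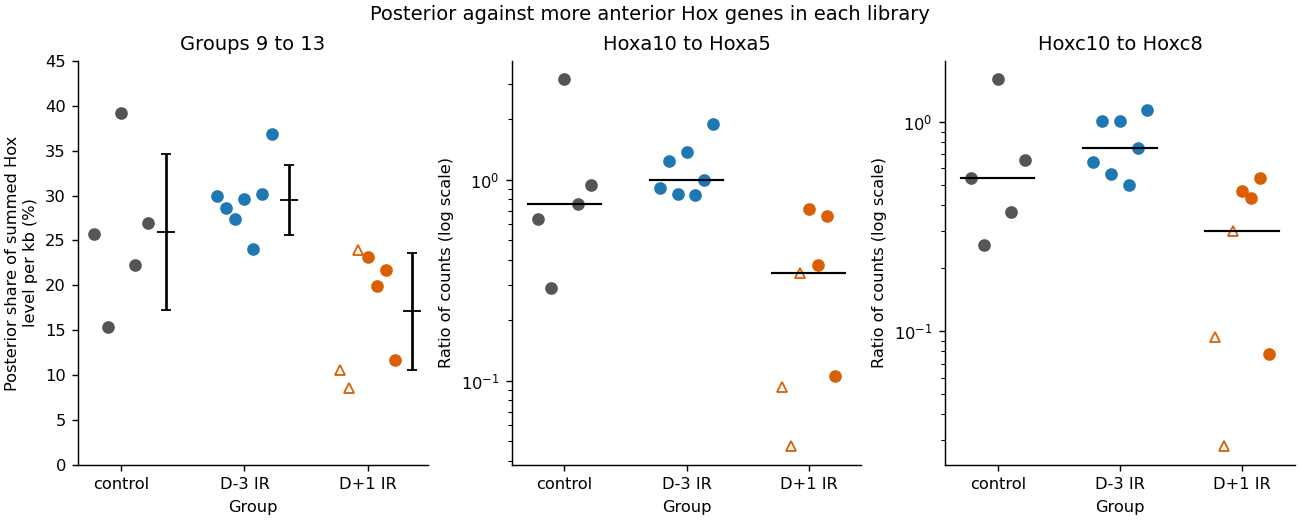
Posterior share of the summed Hox level per kb with mean and SD at the right of each group, and the count ratios of Hoxa10 to Hoxa5 and of Hoxc10 to Hoxc8 on log axes with the median as a line, 1 point per library; open triangles are D+1 IR 1, 2 and 3, whose files carry another series number. D-3 IR lies above D+1 IR for the share and for Hoxa10 to Hoxa5, and in both plots D+1 IR 1, 2 and 20 lie below every control.

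With 1 estimate for all groups, variation between aortas of the same group was close to that of other genes for the Hox genes as a whole. The biological coefficient of variation, the spread of the true level between mice relative to its mean, had a median of 0.399 over the 29 Hox genes and of 0.406 over all genes tested, and 16 of 29 Hox genes lay below the latter. In this coefficient central genes varied least, with a median of 0.354 and the lowest value for Hoxc6 at 0.226. The median was 0.437 for anterior and 0.519 for posterior genes. The highest posterior values belonged to genes near the detection limit, Hoxa11 (1.09), Hoxc11 (1.09) and Hoxd10 (0.862). Hoxa9, Hoxb9 and Hoxd9 had 0.372, 0.406 and 0.478. Hoxa10 and Hoxc10 had 0.519 and 0.526, against 0.293 for Hoxc9. Taken group by group, the spread was less even. With irradiation before AngII the 29 Hox genes had a median SD of log2 CPM of 0.375, below the 0.446 of all genes tested. With irradiation after AngII they had 0.617, above 0.566, and without irradiation 0.550, near 0.542. For posterior Hox genes this SD was 0.385 before, 0.771 after and 0.605 without irradiation. These differences in spread were not tested.

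Leaving out D+1 IR 1, 2 and 3 left fewer genes past the unadjusted threshold. In D-3 IR against D+1 IR the count went from 14 to 5 of 29 (Hoxa9, Hoxa10, Hoxc10 and Hoxc11 higher, Hoxc5 lower), against 3.51% of all genes. In D+1 IR against control it went from 7 to 4 (Hoxa9, Hoxa10, Hoxc10 and Hoxc11), against 1.52%. Both of these reduced counts hold Hoxc11, which no D+1 IR library carried past the filter. Without D-3 IR 10 and D+1 IR 3 the counts were 12 of 29, against 8.16% of all genes, and 7 of 29, against 5.01%. Without D-3 IR 15 as well, the library with the next highest sum of skeletal muscle genes after D-3 IR 10, they were 11 of 29, against 8.22%, and 7 of 29, against 4.85%. In the test for any difference among the 3 groups, 9 of 29 Hox genes had an unadjusted p under 0.05, against 6.65% of all genes, and none passed the adjusted threshold.

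Some Hox genes went with or against marker genes of the vessel wall or of fat across libraries, and others did not. The smooth muscle list, all 8 of whose members were expressed, summed to between 5619 and 29525 CPM in control, 9684 and 25005 CPM in D-3 IR and 1391 and 16612 CPM in D+1 IR, with the highest sum in control 6. The 6 brown adipocyte genes summed to between 214 and 5073 CPM, 387 and 3721 CPM and 810 and 7428 CPM in the same order, with the highest sum in D+1 IR 2. In bulk tissue fewer cells of a type and less RNA per cell cannot be told apart, and the part of tissue makeup in the Hox differences was not tested.

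For the marker genes Hoxa5, Hoxc9 and Hoxc10, 18 relations with 6 marker lists were computed over 19 libraries. None passed the adjusted Pearson test (smallest adjusted permutation p = 0.0626), and 5 passed the adjusted Spearman test. Hoxa5 had r = 0.64 and rho = 0.75 with brown adipocyte genes (adjusted permutation p = 0.0626 and 0.00666), r = 0.59 and rho = 0.69 with white adipocyte genes (0.0626 and 0.0123) and r = -0.56 and rho = -0.60 with smooth muscle genes (0.0626 and 0.0341). Hoxc10 had r = 0.54 and rho = 0.60 with smooth muscle genes (0.0645 and 0.0341), and Hoxc9 r = 0.59 and rho = 0.57 with sympathetic genes (0.0626 and 0.0424). Here and below libraries were permuted across all groups, so these values mix differences between groups with variation within them. The smooth muscle sum had a median of 6892 CPM in D+1 IR, against 13444 CPM in control and 14382 CPM in D-3 IR.

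Without the 2 libraries farthest from the median of the list, r was 0.68, 0.63 and -0.65 for the 3 relations of Hoxa5, 0.66 for Hoxc10 and 0.47 for Hoxc9. Within the 16 libraries of the common file series r was 0.56, 0.45 and -0.54 for Hoxa5, 0.76 for Hoxc10 and 0.44 for Hoxc9. None of the latter passed the adjusted test at n = 16 (adjusted permutation p between 0.0612 and 0.330).

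All 29 Hox genes were then set against the same 6 lists, a choice made after seeing the data, which gave 174 relations, of which 15 passed both adjusted permutation tests. With smooth muscle genes, Hoxb2 (r = 0.86), Hoxa11 (r = 0.81), Hoxa10 (r = 0.76) and Hoxd8 (r = 0.72) were positive, and Hoxc8 (r = -0.84), Hoxc5 (r = -0.77) and Hoxc6 (r = -0.76) negative. Hoxb2 carries the limit on its counts given above, and Hoxa11 had 0, 0, 5 and 2 counts in D+1 IR 1, 2, 3 and 20. Spearman's rho for these 7 ranged from 0.64 to 0.77 for the positive genes and from -0.76 to -0.62 for the negative ones. Within the common file series r was 0.89 for Hoxa11, 0.83 for Hoxb2, 0.82 for Hoxa10, 0.68 for Hoxd8, -0.66 for Hoxc5 and -0.81 for Hoxc8, while Hoxc6 no longer passed (r = -0.62, adjusted permutation p = 0.0687). Without D+1 IR 3 and 20, the 2 farthest libraries, Hoxc6 did not pass either (r = -0.61, adjusted permutation p = 0.0747) and r fell to 0.68 for Hoxb2.

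With brown adipocyte genes Hoxa4 (r = 0.73, rho = 0.90), Hoxa5 and Hoxc5 were positive. Fibroblast genes went with Hoxb9 (r = 0.76, rho = 0.66) and against Hoxd4 (r = -0.65, rho = -0.84). Without the 2 farthest libraries these no longer passed: for Hoxb9 r was 0.54 and for Hoxd4 -0.58 without D+1 IR 3 and D-3 IR 10 (adjusted permutation p = 0.135 and 0.102), and for Hoxc5 with brown adipocyte genes r was 0.46 without control 6 and D-3 IR 10 (adjusted permutation p = 0.273). Within the common file series Hoxb9 (adjusted permutation p = 0.0510) and the brown adipocyte relations of Hoxa5 (0.134) and Hoxc5 (0.166) did not pass either. Sympathetic neuron genes went against the anterior genes Hoxb3 (r = -0.77, rho = -0.75), Hoxa2 (r = -0.74, rho = -0.77) and Hoxa3 (r = -0.69, rho = -0.78). The smooth muscle list, with its Hox genes of both signs, thus held 7 of the 15 relations.

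**Figure D5:**
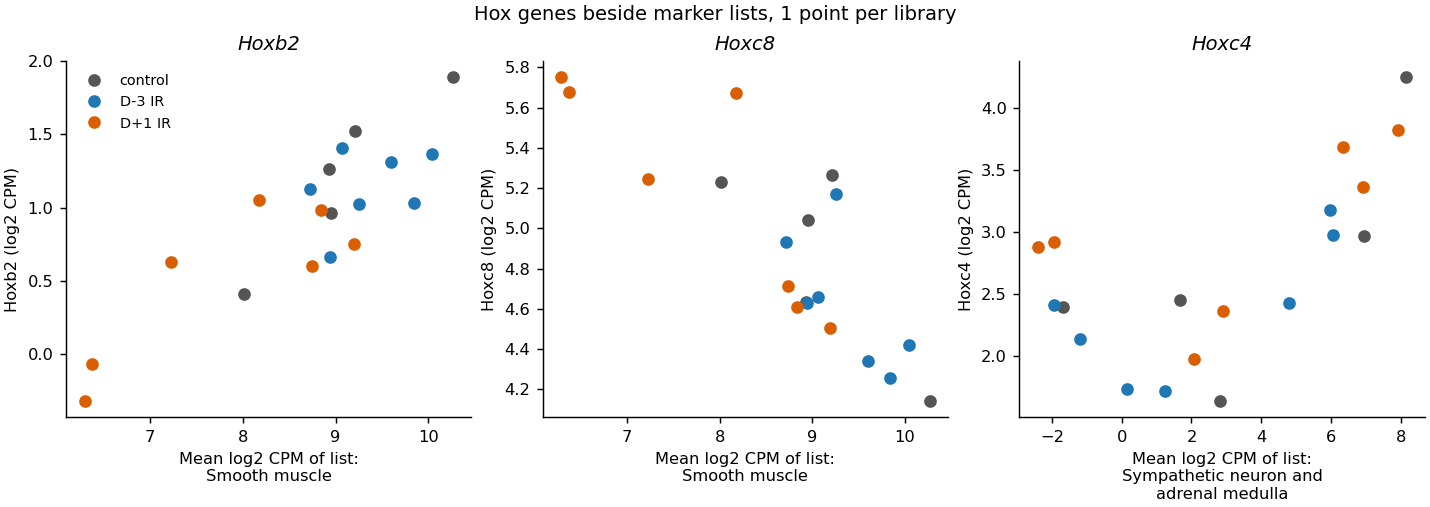
Hoxb2 and Hoxc8 against the mean log2 CPM of 8 smooth muscle genes and Hoxc4 against that of the sympathetic neuron and adrenal medulla list, 1 point per library coloured by group. Hoxb2 is higher and Hoxc8 lower in libraries with more smooth muscle RNA, and Hoxc4 is highest in the libraries with the most sympathetic RNA. The unstranded counts of Hoxb2 lose reads as ambiguous.

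Hoxc4 was set beside the sympathetic list, which has Th and Dbh, enzymes of noradrenaline synthesis, among its members. The 7 libraries with the highest sums of this list were also the 7 with the highest Hoxc4. They were control 8 (3672 CPM of the list and 18.9 CPM of Hoxc4), D+1 IR 17 (3094 and 14.1 CPM), D+1 IR 3 (1511 and 10.2 CPM), control 4 (1385 and 7.77 CPM), D+1 IR 20 (1074 and 12.8 CPM), D-3 IR 10 (848 and 8.99 CPM) and D-3 IR 12 (840 and 7.81 CPM). In the 11 libraries with at most 90.5 CPM of the list, Hoxc4 was between 3.07 and 7.51 CPM.

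Over all 19 libraries r was 0.63 and rho 0.62 (adjusted permutation p = 0.0334 and 0.0506 over the 174 relations), r was 0.64 without control 8 and D+1 IR 2, the 2 farthest libraries (adjusted permutation p = 0.0523), and 0.76 within the common file series. For the neighbour Hoxc6 the relation did not pass (r = 0.42, adjusted permutation p = 0.216). Pnmt, which marks the adrenal medulla among these genes, did not pass the filter.

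Of the other genes that work with the Hox code, none passed the adjusted test in any comparison. The TALE cofactors, which bind DNA with Hox proteins, were all expressed. In D+1 IR against control all 9 had a negative log2 fold change, with a median of -0.25, against 44.9% positive over all genes, and none had an unadjusted p under 0.05. In D-3 IR against D+1 IR 7 of 9 were positive and 1 of 9 had an unadjusted p under 0.05, close to the 11.5% of all genes: Pknox2, with a log2 fold change of 0.53 ± 0.24. Meis1 had 0.37 ± 0.24 and Pbx2 -0.18 ± 0.11. Of the long noncoding RNAs of the clusters 8 of 16 could be tested, and Gm15050, at a log2 fold change of -0.79 ± 0.33, was the 1 with an unadjusted p under 0.05, again near the 11.5% of all genes.

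The Cdx genes, which act upstream of Hox genes in the embryo, did not pass the filter, and none of the 6 other upstream regulators tested had an unadjusted p under 0.05. Of the 5 neighbours of the clusters tested, Mtx2, beside Hoxd, was the 1 with an unadjusted p under 0.05, against the same 11.5%, with a log2 fold change of -0.87 ± 0.32. Among 18 other regional genes of the vessel wall, 3 had an unadjusted p under 0.05, all positive, against 6.71% of all genes. They were Tcf21, with a log2 fold change of 1.41 ± 0.39, Osr1 with 1.23 ± 0.35 and Nr2f2 with 0.46 ± 0.16, and none passed the adjusted test.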

How the data were processed

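Poly(A) RNA of 19 abdominal aortas was sequenced. The authors checked reads with FastQC, mapped them to GRCm38 with STAR 2.7.9a and deposited its counts per gene, from which all values here were computed; the joined table holds the same unstranded counts. Groups follow the sample titles. Library sizes were the sums over genes. Counts were normalized by the trimmed mean of M values and tested with edgeR 4.0.16 (quasi-likelihood F-test, design without intercept, filterByExpr, all 19 libraries, 17617 of 35160 genes with a count, Benjamini-Hochberg over all of them), and steps were tested on simulated data. Log2 CPM used a prior count of 2, and CPM per kb used the union of exons in GENCODE M21. Permutation tests drew 100000 resamples and were two-sided. DESeq2 1.42.0, limma 3.58.1 voom, other scalings, other filters and omitted libraries were alternatives. Named were Hoxa5, Hoxc9 and Hoxc10, the 10 highest genes per kb, the 5 with the smallest p per comparison, the most posterior gene tested of each cluster and those not tested, with up to 4 of each other list; genes beyond these were chosen after their values were seen. Values of a few genes are not reported here. Members and lists were chosen with earlier results of these data known. Only 35 of 55414 gene identifiers carry the version of M21, so the counting annotation is not given in the sources used here.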

Additional observations from a re-analysis of the deposited data

Results flagged for a closer look

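Each of the 19 named genes was checked within the 3 groups for a library far from the others. For independent, normally distributed values chance would find one in about 1 of 20 groups. CPM need not be so distributed and Hox genes are not independent of each other, so that rate need not hold here. Of the 57 checks 8 found such a library. Control 6 was the highest of its group in 4 of them, with 50.8 CPM of Hoxa10 against at most 16.6 CPM in the other controls, 5.08 CPM of Hoxa11 against at most 0.769 CPM, 1.70 CPM of Hoxc11 against at most 0.371 CPM and 34.5 CPM of Hoxd8 against at most 16.1 CPM. The same library had the highest sum of smooth muscle genes, and the part of tissue makeup in this was not tested.

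Control 5 stood apart with 27.8 CPM of Hoxb4 against at most 16.3 CPM in the other controls and with 17.1 CPM of Hoxb8 against at most 9.70 CPM. In D-3 IR, library 16 had 3.30 CPM of Hoxa11 against at most 1.77 CPM in the others. In D+1 IR, library 3 had 1.07 CPM of Hoxd10 against at most 0.527 CPM.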

How the results depend on the processing

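No paired analysis was possible because the labels number every mouse once, so that no replicate number occurs in more than 1 group. The single library per mouse, levels near 0 for group 11 genes and the unknown stretch of aorta limit what can be read from 5 to 7 aortas a group. All 29 genes kept 0 calls at adjusted p under 0.05 in both comparisons with control under every setting run. In D-3 IR against D+1 IR, DESeq2 called 1 and limma voom 9 Hox genes; in each case the cause was not tested.

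Counts at an unadjusted p under 0.05 moved more, and the share of all genes under the same setting is given in brackets. In D-3 IR against control there were 2 with no filter on low counts (5.60%), and 0 to 1 with 1 library left out (1 without control 6, 2.57%). In D+1 IR against control there were 4 with the common file series only (1.52%) and 3 with a fit of these groups alone (5.27%), and 2 (without control 6, 2.13%) to 10 (without control 5, 8.40%) with 1 library left out. In D-3 IR against D+1 IR there were 5 with the common file series only (3.51%). For any difference there were 2 with the common file series only (1.73%) and 3 (without D+1 IR 1, 3.80%) to 11 (without control 4, 11.5%) with 1 library left out.

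Signs of named genes held in 341 of 344 values under other settings and in 601 of 608 with 1 library left out. In D-3 IR against control, Hoxb3 became -0.00987 with second-strand counts and Hoxc9 0.0112 with upper-quartile factors and 0.0321 with limma voom. With 1 library left out in that comparison, Hoxa5 ranged from -0.31 to 0.0105 (without control 5), Hoxc4 from -0.77 to 0.0269 (without control 8) and Hoxc9 from -0.11 to 0.0626 (without control 8). Without division by length, the D-3 IR share was 16.5% anterior and 52.3% central.

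Among the 18 relations, leaving out the 2 farthest libraries and Spearman's rho gave -0.65 and -0.60 for Hoxa5 with smooth muscle, 0.63 and 0.69 with white and 0.68 and 0.75 with brown adipocyte genes, 0.66 and 0.60 for Hoxc10 and 0.21 and 0.0439 for Hoxc9 with smooth muscle, and -0.0339 and -0.0333 for Hoxc10 with sympathetic genes, which had -0.39 within the common file series. Spearman's rank correlation was 0.57 for Hoxc9 with sympathetic genes, r 0.0848 for Hoxa5 with skeletal muscle within the common file series and 0.12 for Hoxc10 with fibroblast genes without the 2 farthest libraries.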

Other observations

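The other marker lists differed widely between single aortas. Erythroid genes summed to between 66.5 and 5192 CPM in control, 421 and 7624 CPM in D-3 IR and 174 and 1136 CPM in D+1 IR. Macrophage genes ranged from 189 to 1471 CPM, 246 to 1293 CPM and 367 to 2096 CPM in the same order, endothelial genes from 347 to 859 CPM, 661 to 1349 CPM and 605 to 1494 CPM, and fibroblast genes from 5472 to 14193 CPM, 3515 to 14321 CPM and 918 to 18152 CPM. White adipocyte genes ranged from 101 to 3173 CPM, 683 to 2468 CPM and 791 to 4597 CPM. Lymphocyte genes reached 373 CPM in D-3 IR 10 and mesothelial genes 62.0 CPM in D-3 IR 16.

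Tbx15, a T-box gene known from skin, skeleton and fat, was the 1 gene of the regional list whose unadjusted p was below 0.05 when D-3 IR was set against control, with a log2 fold change of 2.12 ± 0.87 (SE), 1 of 18 against 1.32% of all genes, and it did not pass the adjusted test (edgeR). It averaged 0.715 CPM in control and 3.12 CPM in D-3 IR, where single aortas ranged from 0.486 to 12.0 CPM.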
